A study of Mus musculus with 6 samples.

Results

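The genes examined here carry out and control sodium reabsorption in the last segments of the nephron, from the distal convoluted tubule through the connecting tubule to the collecting duct. They are Slc12a3, Scnn1a, Scnn1b, Scnn1g, Wnk1, Wnk4, Stk39, Nr3c2, Hsd11b2 and Sgk1, listed by name for their function, though with earlier results of these data known, and they make up 10 of the 54532 named genes in the count table. The mice were labelled WT or Lpar3-/-, the latter meant to lack receptor 3 for lysophosphatidic acid, a signalling lipid, and every mouse had breathed 8% oxygen for 12 h under normal pressure before its kidneys were taken. Each genotype was represented by 3 libraries of polyadenylated kidney RNA. Strain, age, sex, the way the receptor gene was disrupted and whether each library came from its own mouse are not given in the labels, so the p-values reflect only how far these 6 libraries spread, which may be technical. No kidney at normal oxygen was analysed here, so the values compare genotypes under hypoxia and do not measure a response to it.

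Libraries held 16011804 to 17991881 counts. Lpar3 itself did not set the groups apart (36.3 ± 1.31 CPM in WT and 36.4 ± 2.51 CPM in the other group, SD, n = 3 each, where CPM is the count scaled to a common library size). Counts per gene cannot show a missing exon, so the group is named below by its label alone and each direction rests on that label. WT replicate 2 stood apart in markers of tubular injury, whose 6 genes summed to 179 CPM there, 85.3 and 95.7 CPM in the other WT libraries and 73.3 to 82.9 CPM in the libraries labelled Lpar3-/-. These groups did not overlap, and 5 of the 6 genes were lower in the latter at an unadjusted p under 0.05 (5.21% of all genes were), with 0 called by edgeR or DESeq2. Macrophage markers did not overlap either, at 87.8 to 110.8 CPM in WT and 76.8 to 82.4 CPM in the other group. The part of these in the results below was not tested. The 6 adipocyte markers, whose source in the tissue was not tested, summed to 182 to 339 CPM in WT and 123 to 196 CPM in the libraries labelled Lpar3-/-. Within these sums Fabp4 alone stood at 119.6 to 204.9 CPM in WT and 104.2 to 142.5 CPM in the libraries labelled Lpar3-/-. Of these 6 genes 5 were lower in the latter at an unadjusted p under 0.05 by edgeR (5.21% of all genes were). For 4 of the 6 the groups did not overlap, all lower (7.12% of all genes). EdgeR called 0 and DESeq2 called 2, Adipoq and Plin1 (1.08% of its genes). The median log2 fold change of the 6 was -1.50, and its part in the results below was not tested either.

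In these segments sodium enters the tubule cell from the urine through the thiazide-sensitive sodium chloride cotransporter, encoded by Slc12a3, and further downstream through the epithelial sodium channel ENaC, built from the alpha, beta and gamma subunits encoded by Scnn1a, Scnn1b and Scnn1g. WNK kinases, encoded by Wnk1 and Wnk4, activate the kinase SPAK, encoded by Stk39, which phosphorylates and switches on the cotransporter. Aldosterone acts through the mineralocorticoid receptor (Nr3c2), an enzyme that destroys cortisol and corticosterone (Hsd11b2) keeps those steroids off the receptor, and the kinase SGK1 (Sgk1) is an early product of the hormone that keeps ENaC at the cell surface. Much of this control acts on proteins, through phosphorylation, cleavage and removal from the membrane, which RNA counts do not measure.

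All 10 genes were well expressed in all 6 libraries, and no difference between the genotypes passed the test. With the test across all 15225 genes that passed the expression filter, 0 of the 10 were called at an adjusted p under 0.05 (edgeR quasi-likelihood test, Benjamini-Hochberg adjustment), where 57 genes or 0.374% of all genes tested were called (0.125% with a positive and 0.25% with a negative difference, the libraries labelled Lpar3-/- over WT). DESeq2, which called 1.08% of its genes, and limma-voom, which called 0.361%, also called 0 of the 10. By edgeR 0 of the 10 reached an unadjusted p under 0.05, where 9.18% of all genes did (3.97% higher and 5.21% lower). Their log2 fold changes, the libraries labelled Lpar3-/- over WT, ran from -0.15 to 0.16, 6 positive and 4 negative, with a median of 0.061 beside -0.0036 over all genes tested. The median size of the difference, without its sign, was 0.11 for the 10 genes and 0.10 for all genes tested. The 95% intervals show what these libraries could have missed: the widest bound among the 10 was a 1.30-fold difference, for Scnn1a, and 48.6% of all genes tested had an interval inside that bound.

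**Figure D1:**
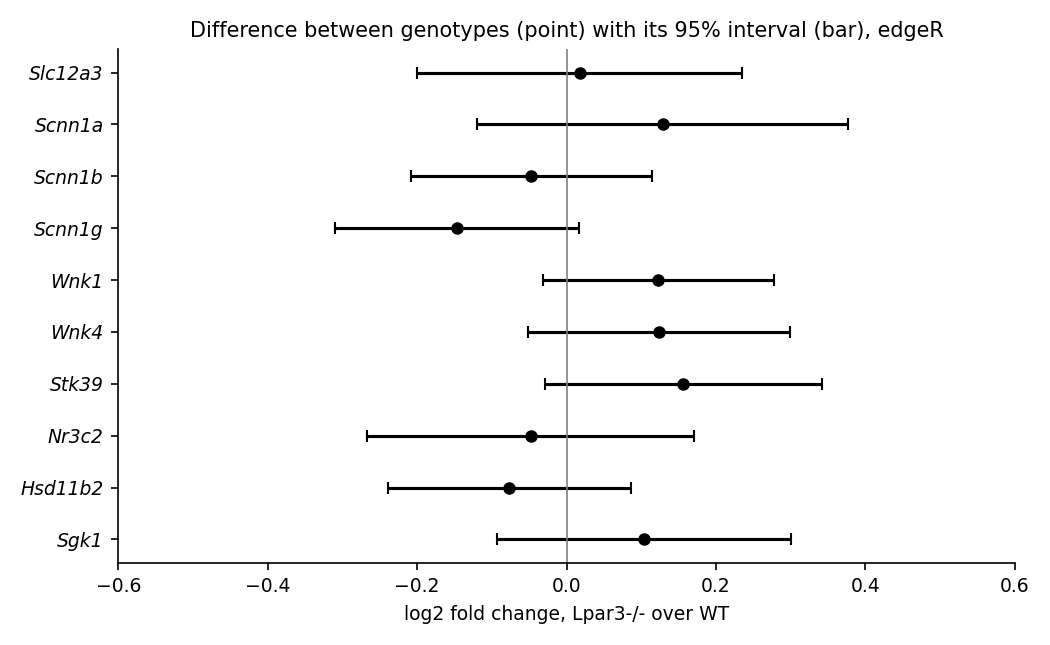
Log2 fold change of each gene, the libraries labelled Lpar3-/- over WT (points, horizontal axis), with its 95% interval from edgeR (bars), over 3 libraries per group. All 10 intervals include 0, and they reach from -0.31 for Scnn1g to 0.38 for Scnn1a.

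Levels per length were compared first, as they show how abundant each transcript is relative to the others. In the authors' deposited FPKM, which divide by the merged length of all annotated exons, Hsd11b2 was highest at 77.8 ± 4.76 FPKM (SD over all 6 libraries). Sgk1 (31.8 ± 2.99), Wnk4 (28.4 ± 2.29), Slc12a3 (28.2 ± 2.77) and Scnn1a (27.3 ± 3.55 FPKM) followed, and the ranges of neighbours among these 4 overlapped. Wnk1 (15 ± 0.927), Scnn1b (13.4 ± 0.396) and Scnn1g (11.8 ± 0.728 FPKM) came next, where the ranges of Wnk1 and Scnn1b overlapped and those of Scnn1b and Scnn1g did not. Stk39 (8.27 ± 0.707) and Nr3c2 (2.69 ± 0.108 FPKM) were lowest and stood clear of their neighbours.

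The order depends on the length used, because the merged exons of some genes are far longer than the transcript with the longest coding sequence. For Slc12a3 the merged length was 11119 bases against 3299 bases for the transcript with the longest coding sequence, a ratio of 3.37, and for Nr3c2 and Wnk1 the ratios were 2.19 and 2.02. Divided by the length of that transcript instead, an alternative chosen after seeing the data, Slc12a3 became the highest of the 10 at 94.9 ± 9.33 on the FPKM scale, ahead of Hsd11b2 at 77.8 ± 4.76 and Sgk1 at 50.4 ± 4.74. The ranges of Slc12a3 and Hsd11b2 overlapped on this scale, and in WT replicate 2 Hsd11b2 was the higher (81.9 against 81.1). Wnk1 became 30.2 ± 1.87, next to Scnn1a at 32.3 ± 4.19 and Wnk4 at 28.7 ± 2.30. Nr3c2 became 5.89 ± 0.237, which may be too high, as 2952 of the 2955 bases of its transcript were coding. Scnn1b, Scnn1g, Stk39 and Nr3c2 kept the last 4 places on both scales. On the second, though, the ranges of Scnn1g (11.8 ± 0.728) and Stk39 (11.6 ± 0.99) overlapped. Scnn1g was the higher in WT replicates 1 and 2, and Stk39 in WT replicate 3 and every library labelled Lpar3-/-. Neither scale alters a comparison of 1 gene between genotypes.

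**Figure D2:**
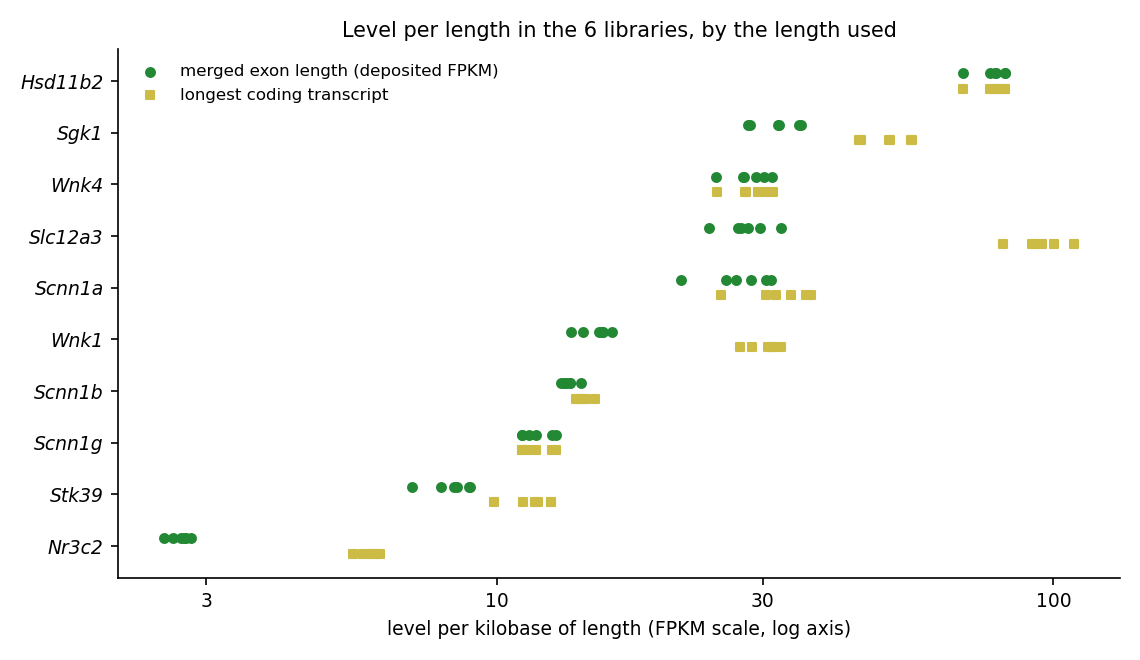
Level per kilobase in each of the 6 libraries (points) on a log axis, for the 10 genes ordered by mean deposited FPKM, once with the merged exon length (circles) and once with the length of the transcript with the longest coding sequence (squares). Slc12a3 moves from a mean of 28.2 to 94.9, while Scnn1g and Hsd11b2 stay in place.

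Among the apical transporters, Slc12a3 marks the distal convoluted tubule and is the target of thiazide diuretics (ENSMUSG00000031766, GRCm38 chromosome 8, 94329201 to 94366214, plus strand, 25 exons in its main coding transcript). It had 363, 269 and 309 CPM in WT replicates 1 to 3 and 302.5, 317 and 334 CPM in the libraries labelled Lpar3-/-. The WT libraries thus enclosed the others, with replicate 1 the highest of all 6 and replicate 2 the lowest. The means were 314 ± 47.0 and 318 ± 15.6 CPM (SD, n = 3 each), with a log2 fold change of 0.018 (SE 0.0997, 95% interval -0.20 to 0.24, edgeR adjusted p = 0.982). Its sign rests on single libraries: it was 0.14 without WT replicate 1, -0.081 without WT replicate 2 and -0.016 when the third library labelled Lpar3-/- was left out (edgeR adjusted p = 0.603, 0.841 and 0.995). It was 0.011 without WT replicate 3 and 0.052 without the first library labelled Lpar3-/-.

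Scnn1a encodes the alpha subunit of ENaC, the subunit the channel needs to reach the membrane and the one whose transcript aldosterone is known to raise in kidney (chromosome 6, 125320659 to 125344943, plus strand). It had 129.5, 88.8 and 108 CPM in WT and 126, 112 and 119 CPM in the libraries labelled Lpar3-/-. As for Slc12a3, the WT libraries spanned the whole range and replicate 2 was lowest. It came to a log2 fold change of 0.13 (SE 0.11, 95% interval -0.12 to 0.38, edgeR adjusted p = 0.816), and it was 0.28 without WT replicate 1, 0.0029 without WT replicate 2 and 0.086 without the first library labelled Lpar3-/-.

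The beta and gamma subunit genes lie next to each other in the same orientation on chromosome 7, with 96.6 kb between them. Scnn1b (121865038 to 121918514) had 37.6, 35.2 and 36.05 CPM in WT and 35.8, 34.9 and 34.6 CPM in the libraries labelled Lpar3-/-, which is a narrow and overlapping range. Its log2 fold change was -0.047 (SE 0.074, 95% interval -0.21 to 0.11, edgeR adjusted p = 0.911), and it was -0.020 without WT replicate 1.

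Scnn1g (121734479 to 121768475) had 38.5, 37.8 and 35.6 CPM in WT and 33.2, 33.4 and 34.5 CPM in the libraries labelled Lpar3-/-. It was 1 of 2 genes among the 10 whose groups did not overlap, and the 3 libraries labelled Lpar3-/- were the lowest. On the log2 scale the difference was -0.15 (SE 0.075, 95% interval -0.31 to 0.017), with the lowest unadjusted p of the 10 (0.0748), and it did not pass the test (edgeR adjusted p = 0.606). Groups that do not overlap were found for 13.7% of all genes tested, 6.58% with the libraries labelled Lpar3-/- higher and 7.12% with them lower. In 16 alternative fits the log2 fold change of Scnn1g stayed between -0.17 and -0.12.

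**Figure D3:**
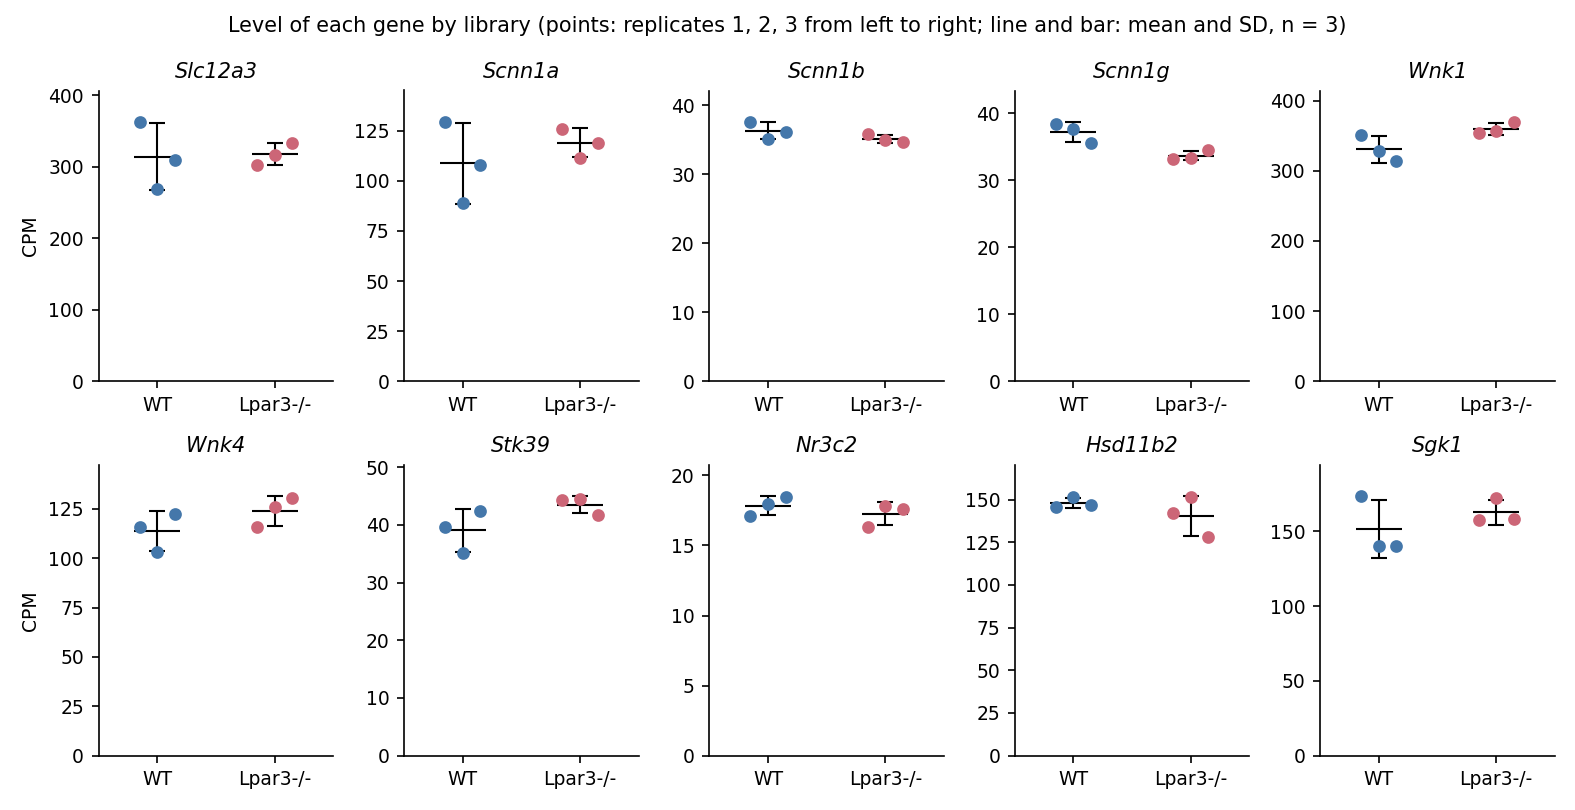
Level of each of the 10 genes in CPM (vertical axes, from 0) in the WT libraries and the libraries labelled Lpar3-/- (points), with the mean and SD of 3 libraries. The groups overlap for 8 genes, while all 3 libraries labelled Lpar3-/- lie below WT for Scnn1g and above WT for Wnk1.

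The balance of the ENaC subunits within each library was examined next, from the deposited FPKM. Scnn1a made up 53.6%, 45.3% and 50.5% of the sum of the 3 subunits in WT and 55.3%, 52.5% and 53.9% in the libraries labelled Lpar3-/-. The share was lowest in WT replicates 2 and 3, and that of WT replicate 1 fell inside the span of the other group. The means differed by 4.10 percentage points (49.8% ± 4.20 and 53.9% ± 1.37, SD, n = 3 each; exact permutation test, two-sided, p = 0.20, where 0.10 is the smallest that 3 against 3 allows). The ratio of Scnn1b to Scnn1g was 1.11, 1.06 and 1.15 in WT and 1.22, 1.19 and 1.14 in the libraries labelled Lpar3-/- (exact permutation p = 0.20). Of 8 such ratios between the 10 genes, none passed, with Benjamini-Hochberg adjusted exact permutation p-values of at least 0.48, and with 3 libraries per group none could have reached a p under 0.05.

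The kinases that switch the cotransporter on had slightly higher means in the libraries labelled Lpar3-/-, with 95% intervals that include 0. Wnk1 (chromosome 6, 119923969 to 120038672, minus strand) is expressed in kidney as a full-length kinase and as a short form without kinase activity made from an internal start in the distal tubule, and the count per gene joins both, over 26 annotated transcripts. It had 351, 328 and 313 CPM in WT and 354, 356 and 370 CPM in the libraries labelled Lpar3-/-. This was the other gene whose groups did not overlap, here with the libraries labelled Lpar3-/- on top, though WT replicate 1 lay just below the nearest of them. Its log2 fold change was 0.12 (SE 0.071, 95% interval -0.032 to 0.28, edgeR adjusted p = 0.669).

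Wnk4, mutated in a familial form of hypertension with high potassium, encodes the WNK kinase most closely tied to the distal convoluted tubule (chromosome 11, 101260567 to 101277409, plus strand). It had 116, 103 and 123 CPM in WT and 116, 126 and 130.4 CPM in the libraries labelled Lpar3-/-. The lowest library was again WT replicate 2, and the groups overlapped. The log2 fold change was 0.12 (SE 0.080, edgeR adjusted p = 0.717), and it was 0.058 without WT replicate 2. An exon of Wnk4 overlaps one of Gm11615 on the other strand over 306 bases, and since the strand setting of the counting is not given, reads there may belong to either.

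Stk39, which encodes SPAK, had 39.7, 35.1 and 42.4 CPM in WT and 44.2, 44.5 and 41.8 CPM in the libraries labelled Lpar3-/- (chromosome 2, 68210445 to 68472268, minus strand). WT replicate 3 lay above 1 library of the other group, so the groups overlapped. It had the largest positive log2 fold change of the 10, 0.16 (SE 0.085, 95% interval -0.029 to 0.34, edgeR adjusted p = 0.640). Without WT replicate 2 it was 0.085, and without WT replicate 3 it was 0.22.

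The genes of mineralocorticoid signalling went in no common direction. Nr3c2, the mineralocorticoid receptor gene (chromosome 8, 76899442 to 77245012, plus strand), had 17.1, 17.99 and 18.4 CPM in WT and 16.4, 17.8 and 17.6 CPM in the libraries labelled Lpar3-/-, a range shared by both groups. Its log2 fold change was -0.048 (SE 0.10, 95% interval -0.27 to 0.17, edgeR adjusted p = 0.940), on 283 to 305 counts per library. It was -0.0090 without the first library labelled Lpar3-/-, -0.020 without WT replicate 3 and -0.077 without WT replicate 1. An exon of Nr3c2 overlaps one of Gm10649 on the other strand over 247 bases, so some of its reads are uncertain too.

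Hsd11b2 encodes the enzyme that converts active glucocorticoids to forms the receptor does not bind, and its loss causes apparent mineralocorticoid excess (chromosome 8, 105518755 to 105523988, plus strand, 5 exons). It had 146, 151.5 and 147 CPM in WT and 142, 151 and 128 CPM in the libraries labelled Lpar3-/-. Replicate 3 labelled Lpar3-/- was the lowest and the other 5 lay close together. This made a log2 fold change of -0.076 (SE 0.075, 95% interval -0.24 to 0.086, edgeR adjusted p = 0.836). It was -0.011 without replicate 3 of that group and -0.13 without its replicate 2. Per length, on the deposited FPKM, Hsd11b2 exceeded the receptor gene it protects 28.0 to 30.01 times in WT and 25.5 to 30.6 times in the libraries labelled Lpar3-/- (exact permutation p = 0.90). The size of this excess depends on the length used. By the transcript with the longest coding sequence it was smaller, with means over all 6 libraries of 77.8 for Hsd11b2 and 5.89 for Nr3c2.

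Sgk1 had 174, 141 and 140.1 CPM in WT and 158, 172 and 158 CPM in the libraries labelled Lpar3-/- (chromosome 10, 21882184 to 21999903, plus strand). WT replicate 1 was the highest of all 6 and the other WT libraries the lowest, so the groups overlapped. Its log2 fold change was 0.10 (SE 0.090, 95% interval -0.093 to 0.30, edgeR adjusted p = 0.814), and it ranged from 0.053 without WT replicate 2 to 0.22 without WT replicate 1. It was 0.054 without WT replicate 3 and 0.061 without the second library labelled Lpar3-/-.

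Sgk1 was also the 1 gene among the 8 with a promoter entry that held the palindrome bound by the mineralocorticoid and glucocorticoid receptors, which is why its promoters are shown. RefSeq windows on GRCm38.p6, from 250 bases before to 50 bases after a transcript start, were searched on both strands for the half-site AGAACA, for the palindrome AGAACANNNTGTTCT, which contains that half-site on each strand, and for the hypoxia response core as ACGTG or GCGTG. Sgk1 has 6 such windows. The first shown here starts transcript Sgk1-202 (chr10:21993640-21993939, plus strand) and the second the transcript Sgk1-201 (chr10:21994416-21994715, plus strand), written 5′ to 3′ with receptor half-sites and the palindrome in capitals.
Sgk1-202 window: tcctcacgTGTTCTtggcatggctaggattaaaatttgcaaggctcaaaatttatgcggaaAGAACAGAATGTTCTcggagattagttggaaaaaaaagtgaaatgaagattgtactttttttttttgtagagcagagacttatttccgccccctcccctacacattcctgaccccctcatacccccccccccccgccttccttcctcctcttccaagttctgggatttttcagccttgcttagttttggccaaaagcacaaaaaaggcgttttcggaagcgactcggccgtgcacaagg
Sgk1-201 window: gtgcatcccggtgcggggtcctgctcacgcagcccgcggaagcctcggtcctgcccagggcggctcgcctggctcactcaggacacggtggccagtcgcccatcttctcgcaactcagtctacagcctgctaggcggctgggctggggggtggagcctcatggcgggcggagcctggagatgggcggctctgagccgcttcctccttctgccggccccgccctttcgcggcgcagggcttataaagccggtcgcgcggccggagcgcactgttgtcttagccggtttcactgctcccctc

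In the Sgk1-202 window the palindrome lies 189 to 175 bases before the start, with another half-site upstream of it, and the Sgk1-201 window held no half-site. The palindrome is rare in this form: 3 of 32817 promoter windows held it (0.00914%), the others being those of Acnat2 and Gm35041. The half-site alone was in 19.0% of all windows, and among the 8 genes with an entry only in windows of Sgk1, in 3 of its 6. The hypoxia core was in 43.8% of all windows, and it was found in windows of Stk39, Wnk1, Nr3c2, Wnk4 and Sgk1 but not in those of Slc12a3, Scnn1b or Scnn1g. A match describes letters in the window and does not show that a factor was bound, and the counts, which are per gene, do not tell which Sgk1 start was used.

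The spread between libraries was wider in WT than in the other group for 8 of the 10 genes, and 60.9% of all genes tested also had the lower coefficient of variation in the libraries labelled Lpar3-/-. It was 15% against 4.91% for Slc12a3 and 18.8% against 6.05% for Scnn1a. Hsd11b2 (2.07% against 8.4%) and Nr3c2 (3.83% against 4.64%) were the exceptions. Some lists of distal tubule markers varied alongside, and others had a different pattern. As the mean log2 difference from the average of all 6 libraries, 8 markers of the distal convoluted tubule (Pvalb, Calb1, Trpm6 and others) stood at 0.20, -0.26 and -0.12 in WT replicates 1 to 3 and at 0.044 to 0.071 in the libraries labelled Lpar3-/-. On the same scale Slc12a3 stood at 0.21, -0.22 and -0.02 in WT and -0.06 to 0.09 in the other group. The 9 markers of intercalated cells, which share these segments but carry acid and base, had an even wider split in WT, with 0.29 in replicate 1 and -0.33 in replicate 2. Connecting tubule markers stood at 0.15, -0.04 and -0.20 in WT and -0.01 to 0.05 in the other group. Principal cell markers stood at -0.06, -0.27 and 0.08 in WT and at -0.16, 0.17 and 0.25 in the other group. In whole kidney RNA, fewer cells of a type and less RNA per cell cannot be told apart, and the part of tissue sampling in these differences was not tested.

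**Figure D4:**
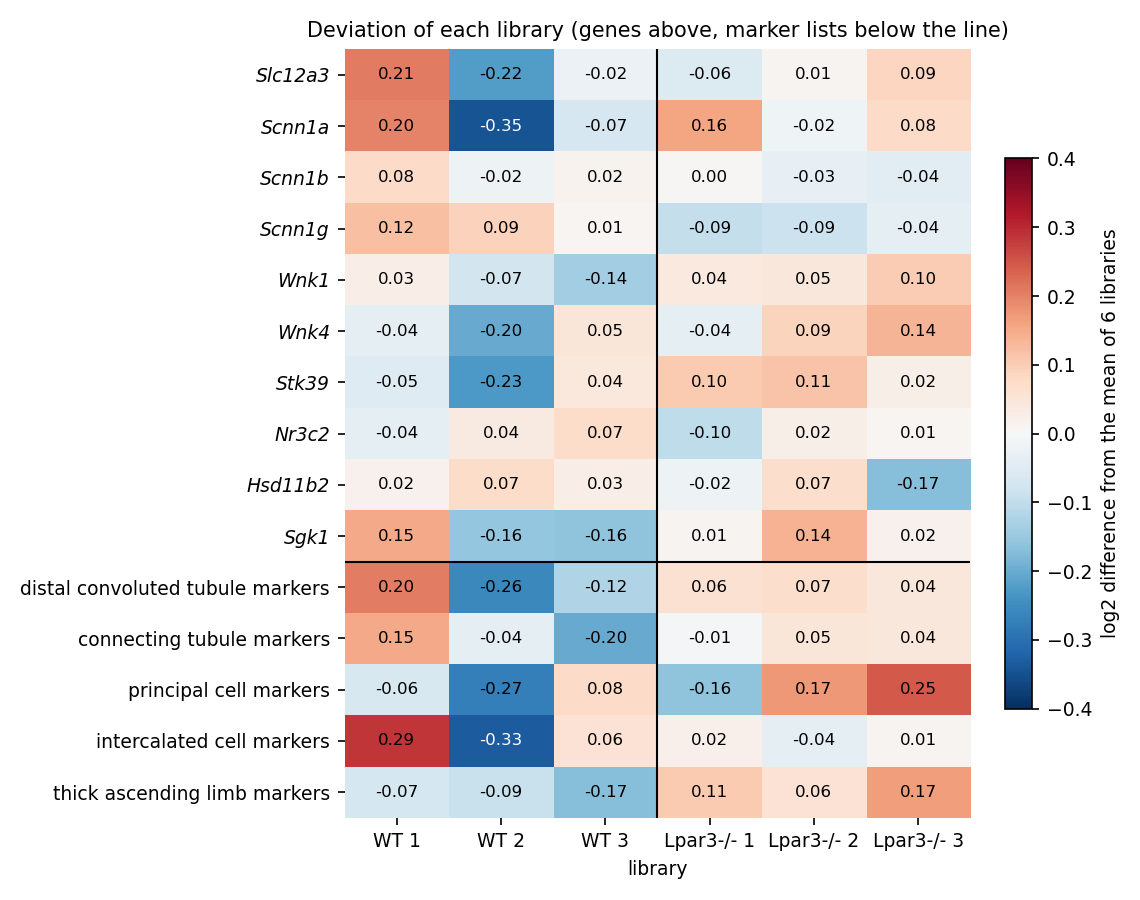
Log2 difference of each library (columns) from the mean of all 6, for the 10 genes (above the line) and for the mean of 5 marker lists (below it), with the value printed in each cell. WT replicate 1 is high and WT replicate 2 low for Slc12a3, Scnn1a and the markers of distal convoluted tubule and intercalated cells, while the libraries labelled Lpar3-/- stay between -0.17 and 0.16 for every one of the 10 genes.

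Pairs of the 10 genes were compared for likeness of pattern across the 6 libraries, as a description. Slc12a3 and Scnn1a had the highest Pearson r of 45 pairs between their log2 CPM over the 6 libraries, 0.83, and 0.86 after the group means were removed. Wnk4 with Stk39 (0.78) and Wnk1 with Sgk1 (0.77) followed. The lowest r was that of Scnn1g with Stk39 (-0.82). The order depends on the group means: with these removed, Scnn1a with Scnn1b (0.94, from 0.45) and Scnn1g with Wnk1 (0.93, from -0.41) came above Slc12a3 with Scnn1a. The lowest was then Scnn1b with Nr3c2 (-0.75), with Scnn1g and Stk39 at -0.65. Before removal the median over all pairs was 0.23, and 25 of 45 were positive. All genes of a library share its depth and its piece of tissue.

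Marker genes of the cells in these segments were present. Summed levels were 647 to 916 CPM in WT and 804 to 850.1 CPM in the libraries labelled Lpar3-/- for the distal convoluted tubule, 1818 to 2544 and 2209 to 2425 CPM for the connecting tubule, 1217 to 1261 and 1210 to 1331 CPM for principal cells, and 342 to 524 and 413 to 439 CPM for intercalated cells. In each of these 4 lists the ranges of the groups overlapped, and edgeR called 0 of their genes. Unadjusted p-values under 0.05 by edgeR were found for 1 higher and 1 lower gene of the distal convoluted tubule, 2 higher and 1 lower of principal cells, and 0 of the other 2 lists, beside 3.97% higher and 5.21% lower over all genes. The first were Slc16a7, a monocarboxylate carrier (138 ± 26.9 and 168 ± 5.89 CPM, edgeR adjusted p = 0.471), and Cnnm2, a magnesium handling protein (38.6 ± 2.56 and 32.6 ± 3.12 CPM, adjusted p = 0.413). Among the principal cell genes Aqp4, a basolateral water channel, had 67.5 ± 12.7 and 102 ± 19.6 CPM (log2 fold change 0.60, edgeR adjusted p = 0.132), and DESeq2 called it (adjusted p = 0.00229). Tfcp2l1, a transcription factor of the collecting duct, had 542 ± 13.7 and 470.3 ± 27.2 CPM (log2 fold change -0.20, edgeR adjusted p = 0.369). Avpr2, the vasopressin receptor gene in the principal cell list, had 3 counts in all 6 libraries together and was too low to be tested. Why its count was so low was not tested.

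Aldosterone itself is made in the adrenal gland. Of 6 adrenal cortex genes, Cyp11b2 (aldosterone synthase), Cyp11b1 and Cyp21a1 had 0 counts in every library, which allows at most 0.188 CPM in the shallowest of them by the floor of 3 counts, and which covers counting error only. The other 3 were detected: Star, a cholesterol carrier of steroid synthesis, at 62 to 87 counts per library, and Hsd3b1 and Cyp11a1 with 17 and 6 counts over all 6 libraries. Hormone levels were not among the data used here.

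Other genes of the pathway were taken from 4 lists, 49 genes in all, of which 48 were tested. EdgeR called 1 of them, higher in the libraries labelled Lpar3-/- (where 0.125% of all genes tested were called higher), and 0 lower. Of the 48, 3 passed with DESeq2 (1.08% of all its genes did) and 2 with limma-voom (0.361%). At an unadjusted p under 0.05, edgeR gave 8 higher and 2 lower, where 3.97% of all genes were higher and 5.21% lower. The median log2 fold change of the 48 was 0.024.

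**Figure D5:**
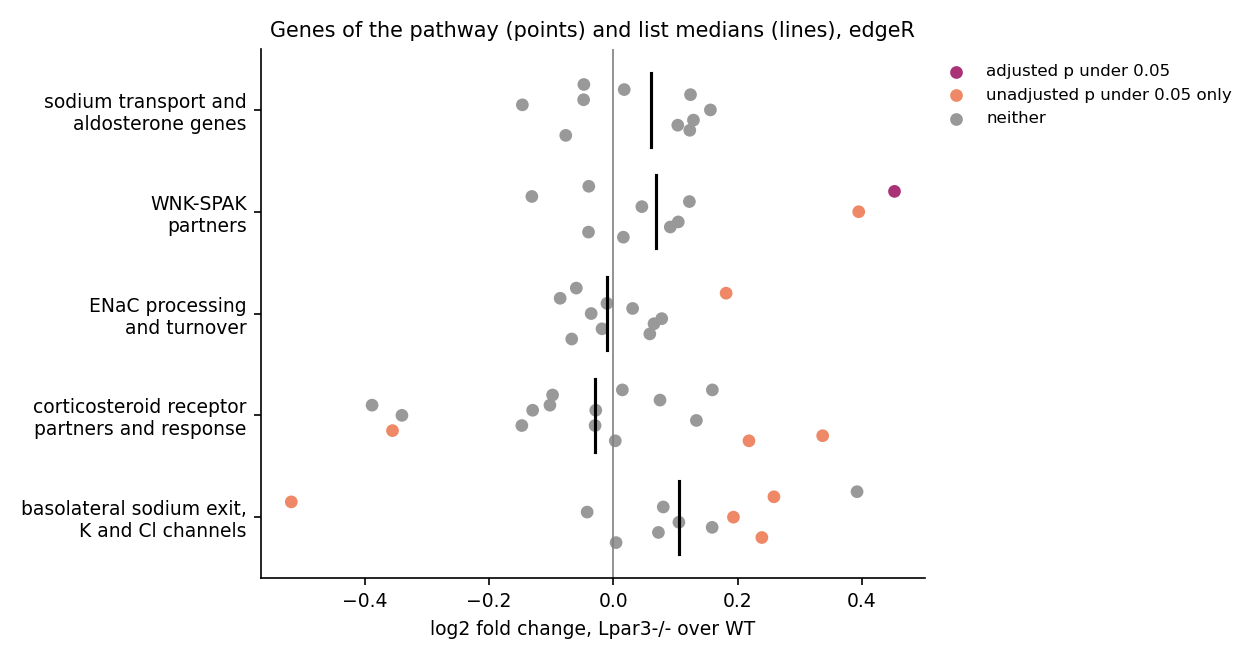
Log2 fold change, the libraries labelled Lpar3-/- over WT (horizontal axis), of the 10 genes and of the tested genes of the 4 pathway lists (points, spread vertically only to separate them), with the median of each list (lines) and the colour showing the edgeR result. Ppp1r1a, at 0.45, is the only gene past the adjusted threshold, and the 10 genes lie between -0.15 and 0.16.

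The called gene was among the partners of the WNK and SPAK kinases. Ppp1r1a encodes inhibitor 1 of protein phosphatase 1, a phosphatase that removes phosphate from many proteins. It had 108, 95.7 and 102 CPM in WT and 137, 141 and 139 CPM in the libraries labelled Lpar3-/-, so every library of one group lay well above those of the other. It rose by a log2 fold change of 0.45 (SE 0.068, edgeR adjusted p = 0.0136), more than the spread between replicates. When any 1 of the libraries labelled Lpar3-/- was left out the call was lost (edgeR adjusted p = 0.0799, 0.0969 and 0.111 for replicates 1 to 3) while the log2 fold change stayed between 0.44 and 0.46, and limma on FPKM did not call it either (adjusted p = 0.102 to 0.19). Slc12a1, the loop of Henle cotransporter that SPAK and its relative OSR1 also phosphorylate, had 1099, 1007 and 1154 CPM in WT and 1366, 1427 and 1494 CPM in the libraries labelled Lpar3-/- (log2 fold change 0.39, SE 0.077). It missed the threshold by edgeR (adjusted p = 0.0613) and passed it by DESeq2 (2e-05) and by limma-voom (0.0496). EdgeR called it with no filter on low counts (0.000107), where 520 of all genes were called. It was also called with the replicate number as a block (0.0492) and without WT replicate 3 (0.0445). EdgeR did not call it without replicate 1, 2 or 3 labelled Lpar3-/- (adjusted p = 0.168, 0.284 and 0.355). Nor was it called without WT replicate 1 or 2 (0.0579 and 0.0818). Other normalizations or a stricter filter (0.0588 to 0.0626) and limma on FPKM (0.205 to 0.337) did not call it either. Genes of thick ascending limb identity, where Slc12a1 is expressed, summed to 4893 to 5548 CPM in WT and 6054 to 6337 CPM in the libraries labelled Lpar3-/-. That list holds Slc12a1 itself. Of the 6 genes in the list 4 were higher at an unadjusted p under 0.05 by edgeR (3.97% of all genes were). For 4 the groups did not overlap, all higher (6.58% of all genes). EdgeR called 0 of the 6 and DESeq2 called 2, Slc12a1 and Egf (1.08% of its genes). The part of tissue sampling in the differences of Slc12a1 and Ppp1r1a was not tested. The other 8 tested partners, among them the ubiquitin ligase parts Klhl3 and Cul3 that mark WNK kinases for destruction, had log2 fold changes from -0.13 to 0.12.

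Genes that process ENaC or remove it from the membrane held no gene that passed. None of the 11 was called by edgeR, DESeq2 or limma-voom, an unadjusted p under 0.05 by edgeR was found for 1 (9.18% over all genes), and their log2 fold changes ran from -0.086 to 0.18 with a median of -0.010. That 1 was St14, which encodes the membrane protease matriptase (55.7 ± 1.91 and 63.2 ± 5.74 CPM, log2 fold change 0.18, edgeR adjusted p = 0.526). The list holds the activating proteases Prss8 and Furin and the ubiquitin ligase gene Nedd4l, whose product is held back by SGK1.

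Corticosteroid receptor partners and genes that respond to these hormones were split. Of 16, 7 had a positive and 9 a negative log2 fold change, with a median of -0.029. The number called was 0 by edgeR, by DESeq2 and by limma-voom. Unadjusted, edgeR put 2 higher and 1 lower at a p under 0.05, beside 3.97% and 5.21% of all genes. Ndrg2, an aldosterone-induced gene, had 135, 95.8 and 109 CPM in WT and 137, 147 and 145 CPM in the libraries labelled Lpar3-/-. Its log2 fold change was 0.34 (edgeR adjusted p = 0.293). EdgeR called it without WT replicate 1 (0.0196) and with no filter on low counts (0.00487), where 520 of all genes were called. With any other single library left out it was not called (edgeR adjusted p = 0.453 to 0.718). Sgk2, a kinase related to SGK1, had 156 ± 15.1 and 182 ± 6.53 CPM (log2 fold change 0.22, edgeR adjusted p = 0.389). Hsd11b1, whose enzyme regenerates active glucocorticoid, had 45.9 ± 12.0 and 35.9 ± 3.77 CPM (log2 fold change -0.36, edgeR adjusted p = 0.514, or 0.0124 with no filter on low counts). Tsc22d3 and Per1, which respond to both receptors and were singled out after their values were seen, had log2 fold changes of 0.015 and 0.13 with SE of 0.14 and 0.15.

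Sodium leaves the cell on the blood side through the sodium pump, and potassium and chloride channels there take part in setting the membrane voltage. The list of 11 genes for the pump and for potassium and chloride channels of the distal nephron is not limited to that side, and includes Kcnj1. Of these 11 genes 0 were called by edgeR and by limma-voom and 1 by DESeq2, beside 1.08% of all its genes. Unadjusted, edgeR put 3 higher and 1 lower at a p under 0.05 (3.97% and 5.21% over all genes), and 9 had a positive log2 fold change, as did 48.9% of all genes. Kcnj16, a basolateral potassium channel subunit, was the gene called by DESeq2 (adjusted p = 0.000725). It had 1714, 1894 and 1268 CPM in WT and 1139, 1146 and 1120 CPM in the libraries labelled Lpar3-/-, with the latter tightly grouped below WT (log2 fold change -0.52, SE 0.12, edgeR adjusted p = 0.111). EdgeR called it without WT replicate 3 (0.00483) and with no filter on low counts (2.48e-08), where 520 of all genes were called. It was not called without replicate 1, 2 or 3 labelled Lpar3-/- (edgeR adjusted p = 0.349, 0.42 and 0.466) or without WT replicate 2 (0.186). Limma-voom (adjusted p = 0.136) and limma on FPKM (0.433 to 0.66) did not call Kcnj16 either. Its partner Kcnj10 had the opposite sign, with 68.5 ± 9.82 and 80.8 ± 4.10 CPM (log2 fold change 0.24, edgeR adjusted p = 0.454). Kcnj10 was thus far lower than Kcnj16, and whole kidney RNA does not show from which segment either came. Kcnj1, the potassium secretory channel of the apical membrane, had 194 ± 21 and 222 ± 7.58 CPM (log2 fold change 0.19, edgeR adjusted p = 0.513), and Fxyd4, a pump regulator of the collecting duct, had 20.9 ± 0.968 and 25.0 ± 3.75 CPM (log2 fold change 0.26, edgeR adjusted p = 0.531).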

How the data were processed

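Polyadenylated kidney RNA of 6 libraries, 3 per genotype, was analysed from the deposited whole-number read counts per gene, which the authors had not normalized. The submitters' processing notes name featureCounts 1.5.0-p3, HISAT2 2.0.5, DESeq2 1.20.0 and the build GRCm38, with no role for each. How strand and ambiguous reads were handled is not given in the sources used here. The authors' deposited FPKM matched counts over gene length and a median-of-ratios library size (largest relative deviation 1.38e-07).

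Rows without a gene name (377 of 54909, 0.259% to 0.362% of a library's counts) were left out. All 15225 genes passing the default expression filter entered the edgeR 4.0.16 quasi-likelihood test (R 4.3.3, TMM, no covariate), with Benjamini-Hochberg adjustment over all of them and calls below 0.05. CPM use TMM-scaled library sizes, and SE come from fold changes and F statistics. Exact permutation tests were two-sided. Alternatives were DESeq2 1.42.0, limma-voom (limma 3.58.1), other normalizations and filters, a replicate block, each library left out, and limma on FPKM with a pseudocount of 1 or 0.1 before taking log2. The fits were also run on simulated counts whose planted differences exceeded those of the 10 genes. That run does not measure power for differences as small as these.

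The 10 genes and all lists were chosen with earlier results of these data known. Named from the lists are genes with an unadjusted p under 0.05, at most 4 per list, or else the 2 most abundant. Klhl3, Cul3, Prss8, Furin, Nedd4l, Tsc22d3 and Per1 were named outside that rule. From the marker lists only genes that bear on a result are named, some outside that rule and after their values were seen. Gene models are GENCODE M21 (GRCm38), equal to the files in coordinates and merged exon length for all 10 genes. Promoters are RefSeq windows on GRCm38.p6, with entries for 8 of the 10.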

Additional observations from a re-analysis of the deposited data

How the results depend on the processing

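Over 16 alternatives, 0 of the 10 genes passed the threshold, with a lowest adjusted p of 0.264 (Scnn1a without WT replicate 1, edgeR). Of 160 fold changes, 158 kept their direction, the exceptions being Slc12a3 without WT replicate 2 (-0.0814) and without labelled Lpar3-/- replicate 3 (-0.0164), within a range of -0.0814 to 0.136 over the left-out libraries. The number of all genes called, 57, became 171 with DESeq2, 520 with no filter, 9, 13 and 4 with limma on log2(FPKM + 1), on log2(FPKM + 0.1) and on log2(FPKM + 1) without a filter, and 12 to 149 with 1 library left out. The number of other pathway genes called, 1, became 3 with DESeq2, 2 with limma-voom, 6 with no filter, 0 with each of the 3 limma fits on FPKM, and 0 to 3 with 1 library left out. Leaving out a library tests fewer samples; for the other settings the cause was not tested. With the replicate number as a block, 2 other pathway genes (Ppp1r1a and Slc12a1) and 80 of all genes were called, and 0 of the 10. Libraries of the same number did not deviate together (r of 0.003, 0.005 and 0.051 between their deviations from the group means), and not every library correlated best with its own number, so the block is only an alternative. With RLE and with upper-quartile normalization each of the 10 genes kept its direction. Depth limits Nr3c2 most, at 283 to 305 counts per library.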
